A study of Mus musculus with 36 samples.

Results

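The genes described here are the mouse genes whose symbol is Zfp followed only by a number, measured in liver before and after an overdose of acetaminophen (APAP). Zfp36 was left out, because it encodes a CCCH protein that binds RNA. The array covered 18193 genes by at least 1 probe set naming that gene alone. Of these, 304 had such a symbol, read by 574 probe sets. Each gene was read from the probe set with the highest mean signal. It was tested if that signal was above 30.8, the median of all deposited values, in at least 3 of 36 arrays. By that filter 251 of the 304 Zfp genes were tested (82.6%), among 14115 tested genes in all, and 53 were not. The rule for choosing genes used names and signal, and no comparison between groups, but it was set with earlier results of these data known. A gene bright in 1 group of 3 mice alone can pass the filter.

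Livers came from SJL mice, named as resistant to APAP in the study's design, and from SMJ, DBA and C57 mice, named as sensitive (DBA/2, SmJ and C57B6 in the design text). All mice were fasted overnight for over 16 h. The 0 h mice were taken before dosing, and the others 3 h or 6 h after an intraperitoneal bolus of 300 mg/kg, with 3 different mice in each of the 12 groups. No vehicle-treated mice enter the comparisons, so hours since dosing, time of day and length of the fast cannot be told apart. Ages are not given in the labels. Each array measured 1 whole liver sample, so fewer cells of a type and less RNA per cell cannot be told apart.

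Most Zfp symbols name C2H2 zinc finger proteins, in which short finger modules held by a zinc ion each contact a few bases of DNA. Many also carry a KRAB domain, which recruits the corepressor Trim28 (KAP1) and with it the histone methyltransferase Setdb1 and heterochromatin proteins. KRAB zinc finger genes lie in clusters of near copies, differ between mouse strains, and are known for silencing retroviral elements and guarding imprinted loci. The symbol is no family by itself: some members work in ribosome assembly, protein ubiquitination or RNA binding.

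The promoters of 5 members that moved with time are shown first, as the 250 bases before the annotated start (RefSeq, GRCm38.p6). Zfp101 (chr17:33394638-33394887, minus strand), Zfp760 (chr17:21707491-21707740, plus strand) and Zfp950 (chr19:61140841-61141090, minus strand) fell after APAP, and Zfp131 (chr13:119790733-119790982, minus strand) and Zfp948 (chr17:21566728-21566977, plus strand) rose. They are shown because these genes carry the time course below and because APAP injury is known to engage stress factors with short DNA motifs. Capitals mark matches on either strand to any of 6 motifs, searched as exact letters.
Zfp101: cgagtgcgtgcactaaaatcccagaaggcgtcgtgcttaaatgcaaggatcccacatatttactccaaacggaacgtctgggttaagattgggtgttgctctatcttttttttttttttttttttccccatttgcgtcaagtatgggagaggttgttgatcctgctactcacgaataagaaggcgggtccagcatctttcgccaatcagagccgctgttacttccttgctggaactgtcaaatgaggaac
Zfp760: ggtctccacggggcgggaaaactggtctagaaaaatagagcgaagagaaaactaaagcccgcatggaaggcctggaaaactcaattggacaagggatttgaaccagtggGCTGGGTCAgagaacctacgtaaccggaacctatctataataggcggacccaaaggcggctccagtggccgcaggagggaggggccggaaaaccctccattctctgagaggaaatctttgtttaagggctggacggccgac
Zfp950: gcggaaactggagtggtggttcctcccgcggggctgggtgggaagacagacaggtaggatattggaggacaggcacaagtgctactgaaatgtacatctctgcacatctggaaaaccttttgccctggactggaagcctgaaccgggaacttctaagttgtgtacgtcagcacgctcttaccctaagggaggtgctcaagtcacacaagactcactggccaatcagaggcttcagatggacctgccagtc
Zfp131: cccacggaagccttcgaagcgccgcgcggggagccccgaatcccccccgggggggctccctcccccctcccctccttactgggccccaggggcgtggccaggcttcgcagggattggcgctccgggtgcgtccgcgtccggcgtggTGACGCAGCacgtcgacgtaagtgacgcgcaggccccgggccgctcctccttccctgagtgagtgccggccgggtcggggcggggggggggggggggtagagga
Zfp948: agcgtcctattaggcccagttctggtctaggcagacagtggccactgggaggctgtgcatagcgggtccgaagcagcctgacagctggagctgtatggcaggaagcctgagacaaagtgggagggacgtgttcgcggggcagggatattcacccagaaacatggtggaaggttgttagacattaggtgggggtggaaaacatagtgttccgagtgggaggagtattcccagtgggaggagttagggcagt

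The capitals in Zfp131 and Zfp760 are matches to TGACNNNGC, the core of the antioxidant response element bound by Nrf2. The match lies 104 bases before the start of Zfp131, which rose, and 141 bases before the start of Zfp760, which fell. No letters of the other motifs occur in these 5 windows. Over windows of 300 bases (250 before and 50 after the start), TGACNNNGC was in 16% of the 250 windows of 206 tested Zfp genes and in 12.4% of all promoters. It was in 20.5% of the 78 windows of Zfp genes that fell at 6 h and in 20% of the 15 windows of those that rose. CGCANGCG, the core of the NRF1 motif, was in 16.4% of Zfp windows and 8.21% of all promoters. The ZNF143 core ACTACAA was in 6.8% and 3.24%, and the cyclic AMP element TGACGTCA in 4% and 1.79%. The AP-1 site TGANTCA was in 4.8% of Zfp windows against 7.81% of all, and TATAAA in 6.4% against 13.6%. An AP-1 site and a cyclic AMP element can overlap the antioxidant core. The median ratio of observed to expected CpG was 0.678 in Zfp windows and 0.384 in all. These shares are descriptions of letters in the windows.

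Every deposited array had the same trimmed mean signal of 150, so the values were already scaled. Arrays of 1 group, taken in 36 pairs, correlated at 0.916 to 0.964 over the 14115 tested genes on the log2 scale. The lowest pairs, at 0.916 and 0.919, both held SJL39, a 3 h mouse. Without it the strain count at 0 h given below was 60 in place of 54, the SJL 3 h count 22 in place of 23, and the count at 6 h 93 in place of 85. The ratio of 3' to 5' signal of actin, a measure of RNA integrity, was 1.71 ± 0.14 in SJL at 0 h and 1.45 ± 0.17 at 6 h (SD, n = 3). DBA had 1.77 and 1.44 at these times, SMJ 1.57 and 1.35, and C57 1.64 and 1.67. The ratio therefore moved with time in 3 strains, and counts with this ratio as a covariate are given beside the counts it touches. Zfp transcripts were dim: the median over the 251 genes of the mean signal was 54.4, against 121 over all genes tested.

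Members with very different roles gave the brightest signals. Mean MAS5 signal over the 36 arrays was 1321 for Zfp622, a factor in maturation of the large ribosomal subunit, and 1207 for Zfp445, a KRAB protein that guards imprinted methylation. It was 737 for Zfp598, a ubiquitin ligase that senses collided ribosomes, 672 for Zfp91, a ubiquitin ligase of the NF-kappaB pathway, and 591 for Zfp771. These are signals of different probes and give no order of transcript abundance. Zfp57, the other KRAB protein of imprinting, was not tested: its signal was 1.17 to 8.2 in all arrays. Zfp42 (Rex1), a marker of pluripotent cells, was not tested either, with signals of 0.351 to 15.7.

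Before dosing, many Zfp genes differed between the strains. A moderated F test over the 4 strains, run with limma on log2(signal + 2.77) across all genes with Benjamini-Hochberg adjustment, found a strain difference at an adjusted p under 0.05 in 54 of the 251 Zfp genes (21.5%). The same test called 26.5% of all genes. Zfp genes were also split by mean signal into 3 bands of like size. The share was 10.7% in the dim band against 6.34% of all genes in that signal range, 18.1% against 16.2% in the middle band, and 35.7% against 38.9% in the bright band. Leaving out each mouse in turn gave 43 to 60 genes. Zfp626 and Zfp994 passed the signal filter only through arrays of the strain where they are high and so had to differ; 52 genes are called besides them.

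DBA mice were low in several genes. Zfp277, a C2H2 protein reported to work with Polycomb repressors, had signals of 61.9, 40.3 and 60.7 in the 3 DBA mice at 0 h. C57 gave 184, 166.5 and 227, SMJ gave 226.3, 215 and 259, and SJL gave 202, 206 and 232. No DBA mouse came near another strain. The DBA level was 3.82-fold below the mean of the other 3 strains (log2 difference -1.93, SE 0.16, F test adjusted p = 1.52e-08). All 6 dosed DBA mice, between 35.2 and 77.2, were also below all dosed mice of the other strains.

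Zfp945 was lower still. DBA mice gave 6.34, 17.9 and 6.64 at 0 h, values in the dimmest part of the array. SJL gave 212, 174 and 138, SMJ 98.3, 62.4 and 89.4, and C57 111, 145 and 99.5. DBA was separate from every other mouse, at -3.32 on the log2 scale (SE 0.30, adjusted p = 5.94e-08). SJL had the highest mean and overlapped C57. In Zfp975, DBA mice gave 6.25, 8.01 and 15.8 against 22 to 56.6 in the other 9 mice (log2 difference -1.75, SE 0.31, adjusted p = 0.000725).

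SMJ stood apart in Zfp386. SMJ gave 61.4, 72.1 and 57.9, while C57 gave 204, 201 and 245, DBA 267, 206 and 266, and SJL 184, 151 and 168.4. SMJ was 3.16-fold below the mean of the others (log2 difference -1.66, SE 0.15, adjusted p = 6.07e-08), with no overlap at 0 h, 3 h or 6 h. SMJ was the high strain in Zfp715, with 279, 307 and 237.4 against 110 to 209 elsewhere (log2 difference 0.83, SE 0.13, adjusted p = 4.35e-05). Zfp949 divided the strains into pairs. Its signals were 188, 159.1 and 164 in SJL and 170, 141 and 180 in DBA, against 44, 59 and 62.7 in SMJ and 56.7, 45.6 and 38.1 in C57. The higher pair and the lower pair did not overlap at any time (adjusted p at 0 h = 9.06e-07).

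C57 was the high strain in Zfp994 and Zfp593. Zfp994 gave 42.7, 45.7 and 74 in C57 and at most 5.91 in the other 9 mice at 0 h, so in those strains it was at the floor of the array. It was above the filter threshold in 6 arrays, all of them C57, so its values are given as a description with no test. At 6 h the C57 mice had 22.2, 8.67 and 21.8, and 1 SMJ mouse at 12.4 overlapped them. Zfp593, a nucleolar factor of the large ribosomal subunit, gave 203, 186 and 303 in C57 and 56.3 to 93 in the others (log2 difference 1.54, SE 0.19, adjusted p = 9.89e-06). Zfp617 was 2.07-fold above the mean of the others in C57 at 0 h (adjusted p = 0.00201), with 455, 471 and 565 against 174 to 341. A second probe set of Zfp617 gave a log2 difference of 0.30 in C57 (SE 0.195) beside 1.05, and its strain F test was not called (adjusted p = 0.286). The mean signals of these probe sets were 189.9 and 269.2.

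SJL, the resistant strain, was high in Zfp626 and low in a larger group. Zfp626 gave 42.8, 62.6 and 40.7 in SJL and at most 19 in the other 9 mice at 0 h. At 3 h and 6 h SJL gave 31.5 to 45.7, and every other mouse was at 23.1 or below. The 9 SJL arrays alone carried it past the filter, so this too is a description with no test. Zfp868 was also higher in SJL, with 156 to 176 against 57.1 to 119 (log2 difference 0.99, SE 0.19, adjusted p = 0.00161). Zfp598 was 1.34-fold higher in SJL. Zfp868 and Zfp598 were chosen for mention after their values were seen.

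**Figure D1:**
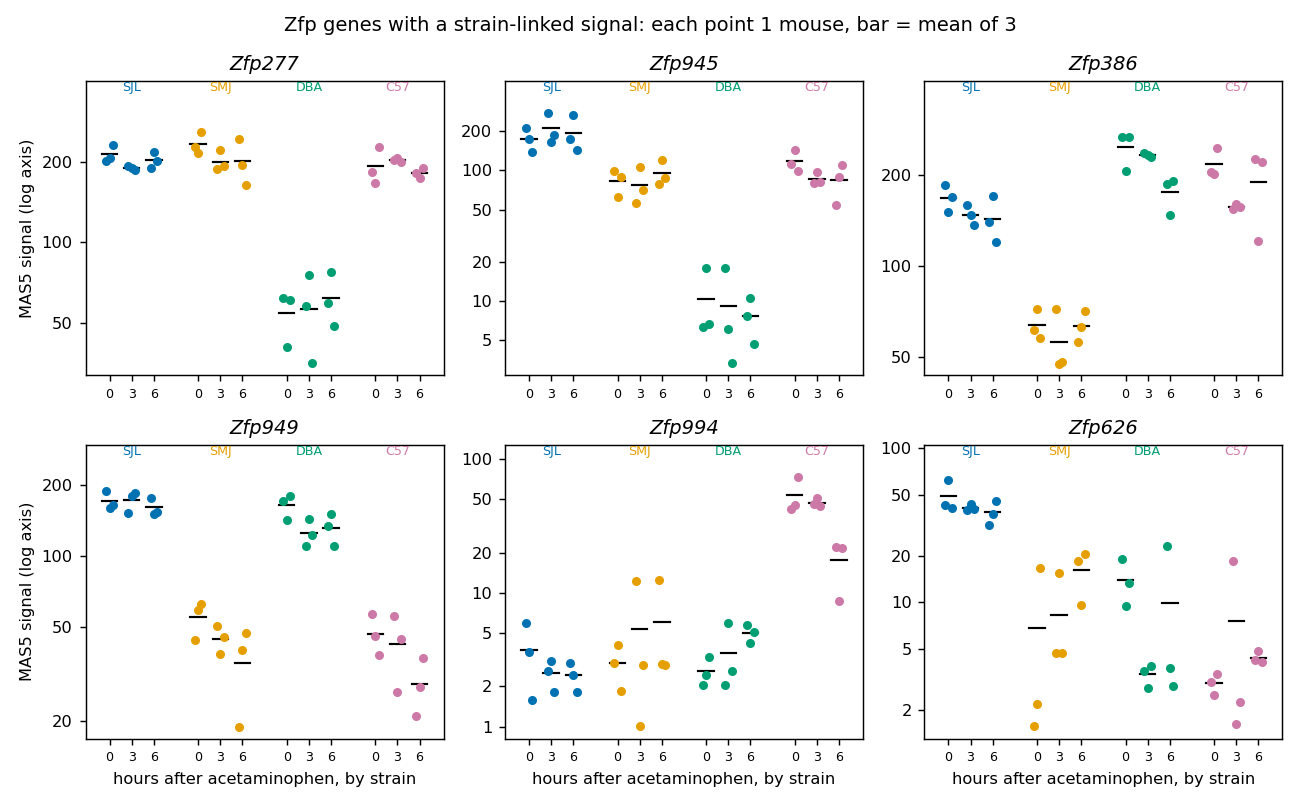
MAS5 signal on a log axis for 6 Zfp genes in each of 36 mice, grouped by strain and by hours after APAP; points are mice and bars are means of 3. DBA is low in Zfp277 and Zfp945 and SMJ in Zfp386 at all 3 times, SMJ and C57 are low in Zfp949, C57 is high in Zfp994, and SJL is high in Zfp626.

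Among the 54 genes, the strain farthest from the mean of the other 3 was SJL for 23 genes, DBA for 11, C57 for 11 and SMJ for 9. SJL was the lower side in 18 of its 23 genes. Over all genes called by the F test, the SJL side was lower in 506 and higher in 508. Tested strain by strain at 0 h, SJL differed from the mean of the others in 31 Zfp genes, 9 higher and 22 lower. Of all genes 12.4% were called, 6.55% higher and 5.84% lower. SMJ differed in 23, 13 higher and 10 lower (9.57% of all genes, 4.57% higher and 5% lower). DBA differed in 20, 5 higher and 15 lower (10.3% of all genes, 4.78% higher and 5.52% lower). C57 differed in 22, 12 higher and 10 lower (12.3% of all genes, 5.93% higher and 6.34% lower). The C57 split was 16 higher and 5 lower after division of each array by its 75th percentile, and 14 and 6 after quantile normalization. Without SJL2 the SJL count was 21. Without SMJ56, SMJ57 or SMJ58 the SMJ count was 15, 7 or 9, without DBA114 the DBA count was 11, and without C57180 or C57182 the C57 count was 13 or 11.

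Other mice, dosed and taken later, tell whether a strain difference at 0 h recurs. In the 3 h mice, the strain difference had the same sign in 43 of the 54 Zfp genes (79.6%) and was called in 29 (53.7%). In the 6 h mice it had the same sign in 47 (87%) and was called in 24 (44.4%). Over all genes called at 0 h the same sign was kept in 90.6% and 87.8%, and 49.9% and 48.7% were called with it. No Zfp gene was called with the opposite sign at either time. Zfp277, Zfp945, Zfp386, Zfp949, Zfp593 and Zfp975 were called again at both times. These calls were read on the same first probe sets, so they are no check on the probes. The second probe sets of Zfp277, Zfp945 and Zfp593, given below, did not show the difference at 0 h. Zfp626 and Zfp994, which passed the filter through 1 strain alone, are included in these counts. Over all 251 Zfp genes, SJL was called higher than the mean of the others in 23 and lower in 14 at 3 h. At 6 h it was called higher in 13 and lower in 7. Over all genes the counts were 1228 and 1308 at 3 h, and 885 and 656 at 6 h. The median SJL difference of Zfp genes was -0.055 at 0 h, 0.081 at 3 h and 0.059 at 6 h (0.044, 0.031 and 0.009 over all genes).

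The 18 genes set apart by a low SJL level were followed in the same way. Their median difference between SJL and the mean of the others was -0.85 on the log2 scale in the mice that chose them, -0.27 at 3 h and -0.25 at 6 h. SJL was still the lower side in 11 at 3 h, with 4 called, and in 14 at 6 h, with 2 called. Of the 506 such genes in the whole table, 80.8% and 83.2% kept the lower sign, and 46% and 34.4% were called. Whether the Zfp genes recur less than the others was not tested. Zfp939 was called at all 3 times: SJL gave 20.3, 31.7 and 37.8 at 0 h, against 42.7 to 97.4 in the other mice. Zfp748 gave 3.77, 5.98 and 14.4 in SJL at 0 h against 28.9 to 66.3, then 45.5, 3.85 and 22.4 at 3 h, where SJL overlapped the other strains. Zfp9 gave 62.9, 50 and 25.1 in SJL, 69.4 to 104 in C57 and 87.3 to 235.6 in the remaining strains. Its log2 difference was -1.35 at 0 h (SE 0.25, strain F test adjusted p = 0.000294), and -0.53 and -0.62 at 3 h and 6 h, neither called. For Zfp451 and Zfp758 the SJL difference itself missed the threshold at 0 h.

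Zfp809 belongs to this group. It is the KRAB protein that binds the primer binding site of murine leukemia virus DNA and silences it through Trim28. SJL gave 144, 63.6 and 157 at 0 h and C57 gave 154, 156 and 148, while DBA gave 204, 196 and 206 and SMJ 274, 225 and 288. SJL was lower than SMJ and DBA without overlap and overlapped C57. Against the mean of the others SJL was 1.75-fold lower and SMJ 1.71-fold higher (adjusted p = 0.00539 and 0.00932). The SJL value rested largely on the mouse at 63.6: the log2 difference of SJL was -0.81 with it and -0.41 without it, and the other SJL mice lay among or near those of C57. Markers moved with strain as well. All 8 tested Kupffer cell and macrophage markers differed between strains at 0 h (26.5% of all genes did). Their summed signal was 5130 to 6200 in SJL, 4290 to 4580 in C57, 3040 to 3550 in SMJ and 3230 to 3330 in DBA. Within this list Marco was lower in SJL than in the others (-0.49, not called). Adgre1 was 0.41 above the others in C57 and 0.40 in SJL, neither called. In other lists 5 of 7 endothelial, 3 of 7 hepatocyte, 2 of 8 neutrophil and 2 of 7 stellate markers were called for strain. The counts were 1 of 4 for bile duct, 1 of 2 for erythroid and 0 of 5 for lymphocyte markers. The part of these markers in the low SJL levels was not tested.

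**Figure D2:**
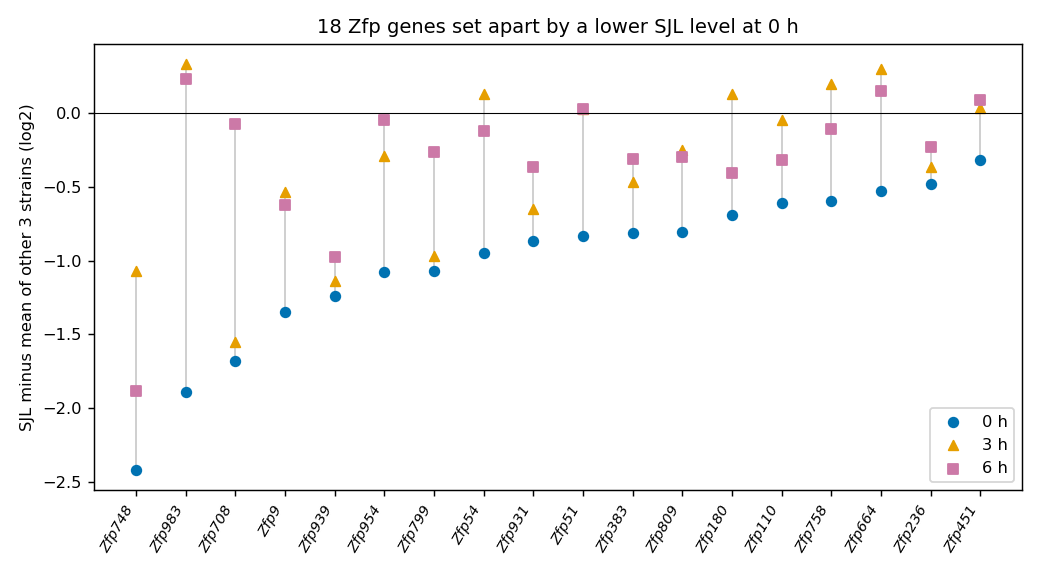
Difference between SJL and the mean of the other 3 strains (log2) for the 18 Zfp genes set apart at 0 h by a low SJL level, in the 0 h, 3 h and 6 h mice. The 0 h mice chose the genes; in the later mice most points lie nearer to 0, and Zfp939 and Zfp748 remain below -0.9 at 6 h.

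A strain difference on a short-probe array may also be read from a second probe set of the same gene, which samples other bases of the transcript. A second probe set passed the filter in 91 Zfp genes, and the first was called for strain at 0 h in 21 of these. In the strain that stood apart, the second had the same sign in 14 and the opposite sign in 7. It was itself called for strain with the same sign in 7 (33.3%, against 41.1% of such genes in the whole table) and with the opposite sign in 0. That count was 4 without DBA113, DBA115 or C57182.

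Zfp386 was the clearest case of agreement. Its second probe set gave 22.5, 41.5 and 34.5 in SMJ at 0 h, while C57 gave 82.2, 93.4 and 149, DBA 135, 129 and 106, and SJL 82.3, 63.5 and 105. SMJ was again separate, at -1.59 on the log2 scale (SE 0.21) beside -1.66 from the first. Zfp975 gave -1.64 in DBA beside -1.75, and Zfp110, a protein that binds the neurotrophin receptor p75, gave -0.51 in SJL beside -0.61. In Zfp949 the pairs of strains were again apart at 0 h: the second probe set gave 81.4 to 111 in SJL and 91.7 to 123 in DBA, against 20.6 to 48.9 in SMJ and C57. The F test called it, with an adjusted p of 0.0131.

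Other strain differences were not seen by the second probe set. The second probe set of Zfp277 gave 47.5, 42.1 and 31.6 in DBA and 21.4 to 66.4 in the other 9 mice at 0 h, with DBA in the middle (log2 difference 0.15, SE 0.28, adjusted p = 0.824). For Zfp945 DBA gave 70.7, 53.7 and 68.5, the highest strain, at 0.50 (SE 0.26, adjusted p = 0.289) beside -3.32 from the first. For Zfp593 the C57 difference was -0.16 (SE 0.37) beside 1.54, and for Zfp281 the DBA difference was -0.29 (SE 0.21) beside -0.82. The first probe set was chosen as the brighter, so the second is the dimmer in every gene. The mean signals of second and first were 42.9 and 165.9 for Zfp277, 51.2 and 96.2 for Zfp945, and 27.8 and 114.6 for Zfp593. For Zfp386, where both gave the same strain difference, they were 82.2 and 154.7. Sequence variants under the probes were not tested, and neither were transcripts that only 1 of the probe sets reads. The first probe set of Zfp593 is of a kind that the array's naming marks as able to bind other transcripts. The first of Zfp975 and the second of Zfp110, genes whose probe sets gave like differences, are of this kind too.

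**Figure D3:**
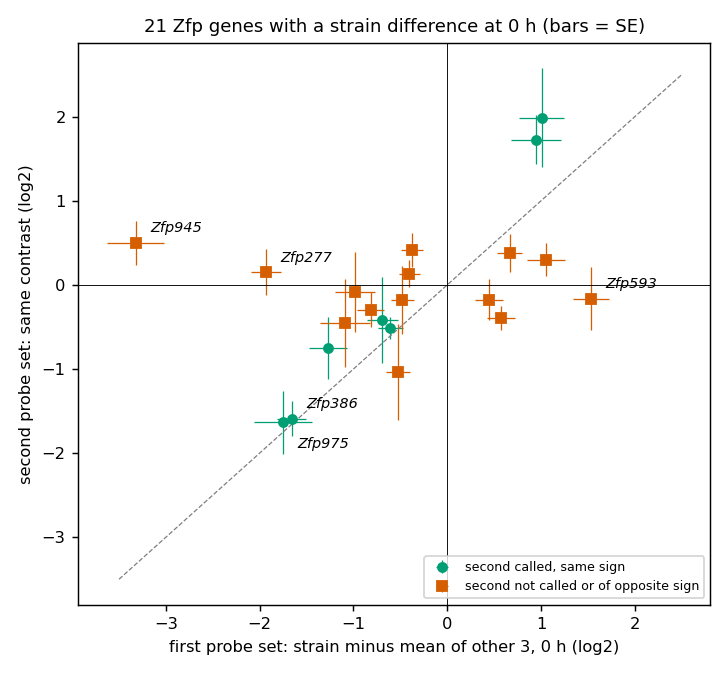
Log2 difference at 0 h between the strain farthest apart and the mean of the other 3, from the first (x) and second (y) probe set of the 21 Zfp genes whose first was called for strain; bars are standard errors and the dashed line marks equal values. Zfp386 and Zfp975 lie near the line, and Zfp277, Zfp945 and Zfp593 lie near 0 or beyond it on the second.

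After APAP, most of the Zfp genes that changed fell. At 3 h, averaged over the strains, 3 Zfp genes were higher and 16 lower than at 0 h (7.57%, against 7.26% of all genes, of which 3.24% were higher and 4.02% lower). At 6 h, 11 were higher and 74 lower (33.9%, against 33.1% of all genes). Zfp709, counted as lower, passed the filter through 0 h mice alone, and 73 were lower besides it. Among these 73, Zfp329 and Zfp563 each had 1 array above the threshold at 3 h and 1 at 6 h, so they needed 0 h mice to pass. Zfp13, counted as higher, passed through dosed mice alone, and 10 were higher besides it. Among these 10, Zfp853 had 1 array above the threshold at 0 h, so it needed dosed mice to pass. The lower calls made up 29.5% of Zfp genes and 20.3% of all genes, and the higher calls 4.38% and 12.7%. The median log2 change at 6 h was -0.21 over the 251 Zfp genes and -0.05 over all genes. From 3 h to 6 h 3 Zfp genes were higher and 25 lower (16.7% of all genes were called, 6.94% higher and 9.77% lower).

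The lower share was present at each level of signal. Zfp genes lower at 6 h were 13.1% of the dim band against 3.71% of all genes in that range, 36.1% against 14.2% in the middle band, and 39.3% against 29.8% in the bright band. With the actin ratio as a covariate, a setting added after the data were seen, 6 Zfp genes were higher and 46 lower at 6 h. All genes were not counted under this setting, so it cannot show whether the lower share still exceeds theirs. Other zinc finger symbols are given for comparison. Of 36 tested Zbtb genes 16 were lower (44.4%) and 6 higher (16.7%), and of 19 Zkscan and Zscan genes 11 were lower (57.9%) and 0 higher. Both lower shares lie above the 29.5% of Zfp genes. The median log2 change was -0.25 for the Zbtb genes and -0.32 for the Zkscan and Zscan genes.

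**Figure D4:**
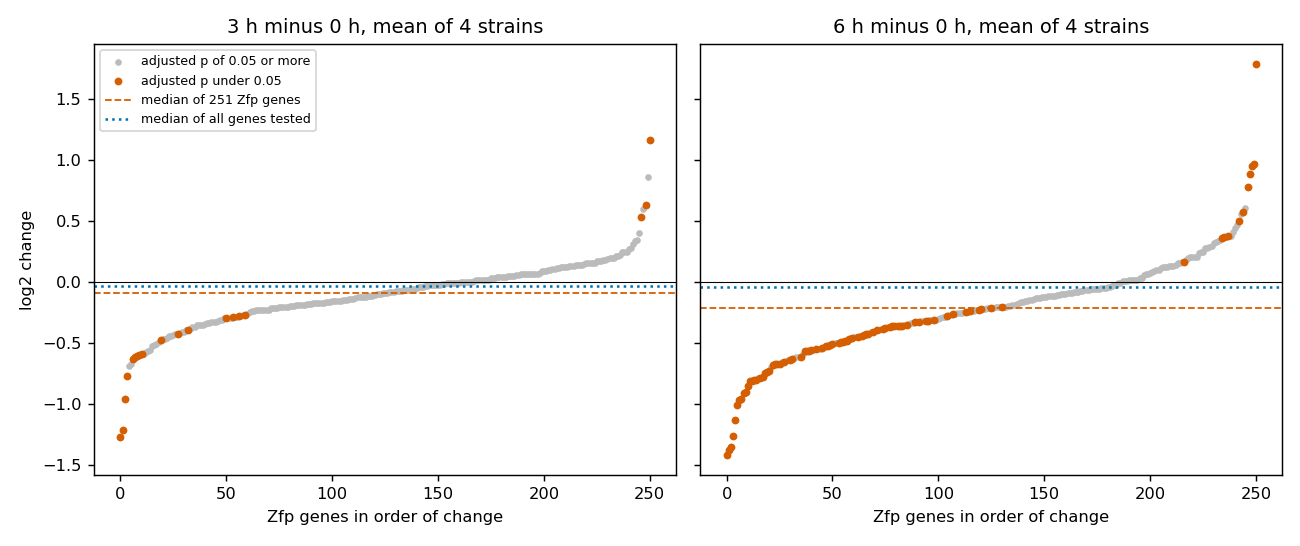
Log2 change at 3 h and 6 h from 0 h, mean of the 4 strains, for 251 Zfp genes in order of change; coloured points have an adjusted p under 0.05 and lines mark the medians of Zfp genes and of all genes tested. At 6 h 74 coloured points lie below 0 and 11 above, and the Zfp median of -0.21 lies under the median of all genes at -0.05.

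Zfp101 fell in every strain. Its signal went from 122, 90.8 and 112 at 0 h to 43.9, 60.6 and 38.3 at 6 h in SJL, and from 81.5, 86.5 and 100.8 to 24.3, 38.2 and 43.3 in SMJ. In DBA it went from 111, 80.8 and 86.8 to 35.2, 54 and 39.8, and in C57 from 62.4, 59.2 and 53.7 to 27.6, 37.5 and 21. No 6 h mouse overlapped a 0 h mouse of its strain. The mean fall was 2.19-fold (log2 change -1.13, SE 0.10, adjusted p = 2.46e-09), and Zfp101 alone among the 251 was called lower at 6 h in all 4 strains taken singly. It was already lower at 3 h in SJL, SMJ and DBA without overlap, while C57 gave 62.6, 47.9 and 60.1 at 3 h and overlapped its 0 h values. Its second probe set is near the floor, with a mean signal of 14.1, and changed by -0.21 at 6 h (adjusted p = 0.67).

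Zfp760 had most of its fall by 3 h. In SJL the signals were 97.3, 64.7 and 99.8 at 0 h, 45.5, 32.6 and 33 at 3 h, and 31.6, 49.8 and 24.7 at 6 h. In SMJ, likewise falling by 3 h, they were 81.2, 116 and 121, then 55, 28.4 and 45.2, then 39.4, 64 and 29.8. DBA went from 77.4, 82.4 and 73.8 to 36, 45.7 and 30.5 and to 15.4, 55.8 and 31.4. C57 went from 65.8, 85.4 and 60.1 to 22.4, 15.4 and 25.4 and to 21.1, 4.46 and 40.8. All dosed mice were below the 0 h mice of their strain at both times. The log2 change was -1.27 at 3 h and -1.42 at 6 h (SE 0.22 for each, adjusted p = 0.00034 and 1.25e-05).

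The log2 change of Zfp950 was -0.96 at 3 h and -1.38 at 6 h (SE 0.24 for each, adjusted p = 0.0135 and 7.06e-05). At 6 h C57 gave 21.5, 31.6 and 27, DBA 23.9, 46 and 30, SMJ 70.3, 39.7 and 43, and SJL 37, 64.9 and 21.8. At 0 h the lowest mouse of each strain gave 50.1, 86.5, 88.7 and 92.6 in the same order, so no strain overlapped. Its second probe set fell by 1.22 at 6 h (adjusted p = 7.6e-05). Zfp638, Zfp768, Zfp839, Zfp932 and Zfp946 also had all 6 h mice below all 0 h mice in each strain, with log2 changes of -0.48 to -0.79. This pattern was present in 4 strains for 8 Zfp genes (3.19%, against 2.64% of all genes) and in exactly 3 strains for 20 (7.97%, against 6.16%), shares close to those of all genes.

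Members of known role were among those that fell. Zfp809, the silencer of murine leukemia virus, went in C57 from 154, 156 and 148 at 0 h to 52, 65.9 and 70.9 at 6 h, and in DBA from 204, 196 and 206 to 113.2, 82.7 and 72.6. In SMJ it went from 274, 225 and 288 to 175, 217 and 208. SJL, which began lower, went from 144, 63.6 and 157 to 74.9, 103.3 and 75.3, where the times overlap. The mean log2 change was -0.81 (SE 0.12, adjusted p = 5.03e-06), and a difference in this change between strains was not called (adjusted p = 0.143). Zfp207 (BuGZ), which loads Bub3 at kinetochores, fell by 0.67 (SE 0.09, adjusted p = 1.04e-06). Its second probe set fell by 0.34 (adjusted p = 0.0148). Zfp445 fell by 0.32 (adjusted p = 0.0013) and by 0.23 on its second probe set (adjusted p = 0.00485). Zfp91 fell by 0.36 (adjusted p = 0.000131), while its second probe set changed by 0.01 (adjusted p = 0.978). Zfp292 fell by 0.33 (adjusted p = 0.0289) and by 0.23 on its second probe set (adjusted p = 0.0197). The first of these Zfp292 calls was lost in 6 of 36 fits without 1 mouse, under both other scalings and with the actin covariate (adjusted p up to 0.121).

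Several other genes of known role did not pass the test at 6 h on their first probe set, and for some the second differed. Zfp148, which binds GC-rich promoters, changed by -0.04 (SE 0.06), and Zfp568, a repressor of a placental Igf2 transcript, by -0.15 (SE 0.10). Zfp318, which acts in immunoglobulin D expression, changed by -0.17, Zfp106, an RNA-binding protein of muscle and motor neurons, by -0.10, and Zfp202 by -0.19. The second probe sets of Zfp148, Zfp318 and Zfp106 were called lower, at -0.33, -0.70 and -0.24 (adjusted p = 0.00298, 0.000257 and 0.0407). Among members tied to ribosomes, Zfp598 changed by -0.06, Zfp622 by 0.13 and Zfp593 by 0.10, none called. The second probe sets of Zfp622 and Zfp593 were called higher, at 0.31 and 0.93 (adjusted p = 0.00296 and 0.00237). Among the largest falls, Zfp182 changed by -1.27 (SE 0.30, adjusted p = 0.00155), Zfp866 by -1.01 (SE 0.17, adjusted p = 5.05e-05) and Zfp395 by -0.81 (SE 0.11, adjusted p = 2.3e-06). Zfp329 changed by -1.35 (SE 0.28), but it needed 0 h mice to pass the filter, so this fall is a description. Its change was -0.65 (adjusted p = 0.0635) when its probe set was chosen by mean log2 signal.

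Few Zfp genes rose. The smallest adjusted p was that of Zfp131, a BTB zinc finger protein. SJL gave 197, 161 and 196 at 0 h and 373, 394 and 363 at 6 h, and DBA gave 133, 151 and 130 and then 340, 278 and 291. SMJ went from 207, 153 and 180.8 to 315, 364 and 281. C57 had 179, 179 and 266 at 0 h and 229, 225.7 and 223 at 6 h, so the times overlapped there and not in the other 3 strains. The log2 change was 0.63 at 3 h and 0.78 at 6 h (SE 0.09 for each, adjusted p = 1.43e-05 and 8.72e-08).

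Zfp948 rose as well, in 0 h and 6 h mice of SMJ (65.4, 65.5 and 41.2 to 141, 149 and 131) and DBA (44.6, 29.2 and 38.4 to 96.6, 54.8 and 97.4) without overlap. SJL overlapped at 6 h (36.2, 73 and 89.6 after 42.4, 29.5 and 31), as did C57 (30.5, 33.6 and 53.2 after 28.9, 24.6 and 34). The mean change was 0.88 (SE 0.14, adjusted p = 1.48e-05). The remaining rises called at 6 h were those of Zfp13 (1.79), Zfp1 (0.97), Zfp853 (0.95), Zfp516 (0.57), Zfp655 (0.50), Zfp330 (0.37), Zfp335 (0.37), Zfp513 (0.36) and Zfp384 (0.16). Zfp13 rested on signals of 2.58 to 56 that overlapped between 0 h and 6 h in SJL, and it passed the filter through dosed mice alone, so its rise is a description. Zfp853 needed dosed mice to pass, so its rise is a description too. The second probe set of Zfp655, nearly as bright as the first (mean signals 319 and 347), changed by -0.05 (adjusted p = 0.72). Zfp853 and Zfp516, a factor in brown fat gene activation, missed the threshold with the actin covariate (adjusted p = 0.106 and 0.121), and Zfp516 changed by -0.01 with its other probe set.

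**Figure D5:**
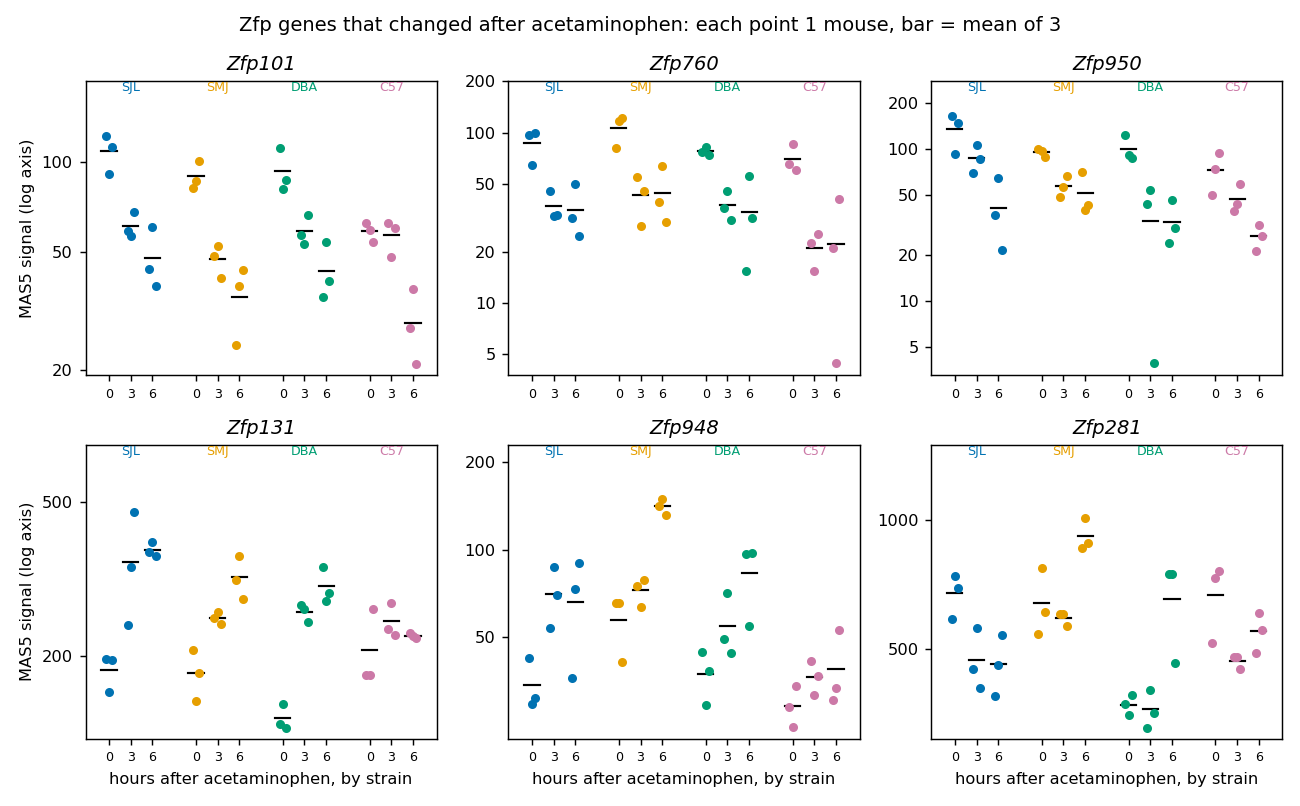
MAS5 signal on a log axis for 6 Zfp genes in each of 36 mice by strain and hours after APAP; points are mice and bars are means of 3. Zfp101, Zfp760 and Zfp950 fall in all 4 strains, Zfp131 rises in SJL, SMJ and DBA, and Zfp281 is higher at 6 h than at 0 h in DBA.

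Second probe sets were also compared for the 6 h change. Of 35 Zfp genes with a second probe set and a called first, the second had the same sign in 27 and was called with that sign in 15 (42.9%, against 50.5% in the whole table), and 0 were called with the opposite sign. The difference between the shares for time and for strain was not tested against each other.

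Taken strain by strain, most calls at 3 h were in SJL and most at 6 h were in the sensitive strains, as over all genes. At 3 h, 15 Zfp genes were higher and 8 lower in SJL (9.16%, against 10.1% of all genes). In DBA 2 were higher and 3 lower (1.99%, against 1.46%). SMJ and C57 had 0 by the limma test (0.205% and 0.283% of all genes), where 18 and 16 Zfp genes had an unadjusted p under 0.05. Over all genes SJL had 627 higher and 800 lower at 3 h, and DBA 150 and 56. At 6 h C57 had 1 higher and 26 lower (10.8%, against 10.1% of all genes) and DBA 4 and 21 (9.96%, against 12.6%). SMJ had 5 and 31 (14.3%, against 21.4%) and SJL 2 and 5 (2.79%, against 7%). Over all genes the splits were 620 and 811 in C57, 684 and 1093 in DBA, 1252 and 1768 in SMJ, and 513 and 475 in SJL. The DBA split of Zfp genes was 7 higher and 16 lower after quantile normalization and 6 and 15 after division by the 75th percentile.

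The SJL count at 3 h was 10 without SJL1 or SJL2, 12 without SJL4 or SJL40, 10 with the actin covariate, and 0 when only the SJL arrays at these times were fitted. The DBA count at 3 h was 1 without DBA113, DBA115 or DBA160 and 3 without DBA114. At 6 h the SJL count was 3 without SJL4, the SMJ count 23 without SMJ57 or SMJ101, the DBA count 14 without DBA115, and the C57 count 11 without C57182 and 15 without C57236. Called in 1 strain and not in another, a gene is not shown to differ between them, and the difference itself was tested next.

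The 3 h change differed between strains in 2 Zfp genes (0.797%, against 1.95% of all genes), Zfp263 and Zfp664. Zfp263 went in SJL from 141, 110 and 138 to 216, 335 and 188, with no overlap. It went from 177, 177 and 164 to 139, 94.2 and 94.5 in DBA and overlapped in SMJ and C57. The log2 change in SJL lay 1.27 above the mean change of the others (SE 0.27, adjusted p = 0.00636), and the F test gave an adjusted p of 0.0354. Zfp664 went in SJL from 125, 114.7 and 105 to 164, 222 and 155 and overlapped its 0 h values in SMJ and C57 (difference from the mean change of the others 0.83, SE 0.18, F test adjusted p = 0.0404). The F test of Zfp263 missed the threshold in 9 of 36 fits without 1 mouse (adjusted p up to 0.125, without SJL40) and that of Zfp664 in 17 (up to 0.144, without SJL40). Both also missed it without a filter, with only the arrays compared and with the actin covariate. Leaving out 1 mouse gave 0 to 5 such genes: 0 without SJL2, SJL40, DBA113, DBA115 or DBA159, 5 without SJL42, and 1 without SJL1, SJL45, SMJ57, SMJ58, SMJ95, SMJ96, DBA114, DBA160, C57180, C57181, C57226 or C57231.

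Against the mean change of the other strains, SJL differed at 3 h in 10 Zfp genes, 9 upward and 1 downward (3.98%, against 4.63% of all genes). Over all genes 301 were upward and 352 downward. After quantile normalization or division by the 75th percentile the split of Zfp genes was 7 and 2. The upward genes were Zfp263, Zfp664, Zfp180, Zfp983, Zfp113, Zfp84, Zfp54, Zfp597 and Zfp598, and the downward gene was Zfp362. Zfp362 went in SJL from 311, 254 and 271 to 88.8, 122 and 187, with no overlap, and overlapped its 0 h values in each of the other strains (difference -1.18, SE 0.28, adjusted p = 0.0148, and 0.0545 without SJL1 or 0.0626 without SJL39). Zfp664, Zfp180, Zfp983 and Zfp54 were also among the genes low in SJL at 0 h, so the same 0 h mice enter both results. The count was 3 without SJL1, 4 without SJL2 or SJL40, and 6 without SJL4, SMJ58, DBA114 or C57180. At 6 h 0 genes differed by this test (0.248% of all genes), and 30 had an unadjusted p under 0.05.

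The 6 h change differed between strains in 3 Zfp genes (1.2%, against 5.26% of all genes): Zfp281, Zfp750 and Zfp131. Zfp281, which binds GC boxes and is studied in pluripotent cells, went in DBA from 372, 352 and 389 at 0 h to 745, 746 and 464 at 6 h. In SMJ it went from 543, 771 and 609 to 858, 1009 and 880. Both rose without overlap, with log2 changes of 0.78 and 0.53 (adjusted p = 0.00351 and 0.031). SJL went from 588, 739 and 694 to 388, 459 and 538, without overlap but not called (-0.55, adjusted p = 0.0552), and C57 changed by -0.27. The F test for a difference gave an adjusted p of 0.00322. Zfp281 was also set apart at 0 h by a low DBA level (-0.82), so the same 0 h mice enter both results. In the mean of strains the first probe set of Zfp281 changed by 0.12 (adjusted p = 0.321) and the second by -0.15 (adjusted p = 0.431). Neither mean checks the difference between strains.

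Zfp750, a regulator of epidermal differentiation, fell in SMJ from 46, 155 and 112 to 5.15, 15.8 and 19.1 (log2 change -2.70, SE 0.44, adjusted p = 6.68e-05). SMJ had no overlap with its 0 h mice, and the other strains changed by -0.12 to -0.76 without being called. The F test gave an adjusted p of 0.0272, and 0.103, 0.0807 and 0.105 without SMJ57, SMJ58 and SMJ101. For Zfp131 the change in C57 was 0.14 against 0.82 to 1.12 in the other 3 strains (F test adjusted p = 0.0411). That call was lost with the actin covariate (0.27), without a filter (0.0633) and in 17 of 36 fits without 1 mouse (up to 0.142, without C57182). Without SMJ58 the number of such genes was 1, and without SJL1, SMJ102 or SMJ103 it was 5 and without SJL39 6.

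Partners of the KRAB proteins were measured beside them. Of 28 corepressor and heterochromatin genes 25 were tested. At 6 h 1 was higher and 8 were lower (12.7% and 20.3% of all genes), with a median log2 change of -0.09 against -0.05 over all genes. Tasor, a subunit of the HUSH silencing complex, fell by 0.98 (SE 0.13, adjusted p = 1.38e-06), Cbx1 (HP1 beta) by 0.40 (adjusted p = 8.57e-06) and the deacetylase Hdac2 by 0.34 (adjusted p = 8.87e-05). Rbbp7 was the gene that rose, by 0.16. Trim28 itself changed by -0.03 (SE 0.08, adjusted p = 0.832) and Setdb1 by -0.16 (SE 0.07, adjusted p = 0.103). At 3 h Cbx1, Atrx and Tasor were lower. At 0 h 8 of the 25 differed between strains (26.5% of all genes did), among them Tasor (adjusted p = 0.000538), Trim24 (0.000741) and Chd3 (0.00303).

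Cell type markers moved with time. At 6 h 6 of 7 tested hepatocyte markers, 5 of 8 neutrophil markers and 5 of 7 endothelial markers were higher and none of these 3 lists had a lower one. The summed neutrophil signal was 136 to 942 at 0 h and 466 to 2600 at 6 h, and the summed hepatocyte signal 75700 to 127000 and 94100 to 159000. Of the stellate markers 2 were higher and 2 lower of 7, and 1 of 8 Kupffer and 1 of 4 bile duct markers were higher. None of the 5 lymphocyte and 2 erythroid markers was called by limma at 6 h. The part of these markers in the Zfp changes was not tested.

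Many Zfp genes are neighbours. Of 301 members placed on the reference, 122 lie in runs of at least 3 with no more than 2 other coding genes between neighbours, and 100 of these were tested. Strain differences at 0 h were called in 23 of the 100 and in 31 of the 151 tested outside runs, shares of 23% and 20.5% against 26.5% of all genes. At 6 h 31 in runs were lower and 3 higher, and 43 outside were lower and 8 higher (20.3% of all genes were lower and 12.7% higher). The longest run, of 17 genes on chromosome 17 from Zfp677 to Zfp946, had 16 tested. In it 6 were called for strain, 6 were lower and 1 higher at 6 h. Within it Zfp948 rose, Zfp760 and Zfp946 fell, Zfp994 was high in C57, and Zfp54, Zfp51, Zfp983 and Zfp758 were set apart by a low SJL level. Near copies in such runs may share probes, and 20 of the 251 tested members were read by probe sets of the kind named as able to bind other transcripts.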

How the data were processed

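Liver RNA of 36 mice was measured on Affymetrix arrays, 1 array per mouse. The deposited values are MAS5 intensity signals on a linear scale, named so per the submitters' processing notes, with no version given; each array has the same trimmed mean. The aligner of probes is not given in the sources used here. Probe sets (45101) were paired with genes through the platform annotation: 34945 had 1 symbol, 932 several and 9160 none, and 64 were controls.

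Signals were analysed as log2(signal + 2.77), the offset being the 10th percentile, so changes of dim genes are understated. Per gene the probe set with the highest mean signal was kept if above 30.8 in at least 3 arrays. limma 3.58.1 (R 4.3.3) fitted 12 group means over all 36 arrays (24 residual degrees of freedom), with moderated t and F tests and Benjamini-Hochberg adjustment over 14115 genes at 0.05. The code was tested on simulated data. Precision is limited by 3 mice per group. SE is the moderated standard error.

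Members and gene lists were chosen with earlier results of these data known. Named genes were the 5 brightest, the 10 with the smallest strain p, the largest called differences and changes by a preset number per comparison, the leading cases of agreeing and disagreeing second probe sets, and members of known role. Alternatives were other offsets, filters, scalings, probe sets and samples, and the actin ratio as a covariate. Zfp143, Zfp238, Zfp260 and Zfp706 were not analysed here under those symbols, and protein features were not analysed here.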

Additional observations from a re-analysis of the deposited data

Results flagged for a closer look

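For 5 Zfp genes the change after APAP differed between strains by the moderated F test on the change itself. For the change to 3 h these were Zfp263 (adjusted p = 0.0354) and Zfp664 (adjusted p = 0.0404), both with a rise in SJL. For the change to 6 h they were Zfp281 (adjusted p = 0.00322), higher in DBA and SMJ and not in SJL or C57, Zfp750 (adjusted p = 0.0272), lower in SMJ, and Zfp131 (adjusted p = 0.0411), with little change in C57. The calls of Zfp263, Zfp664, Zfp750 and Zfp131 were lost in 9, 17, 3 and 17 of 36 fits without 1 mouse, and those of Zfp263, Zfp664 and Zfp131 also without a filter or with the actin covariate. Groups of 3 mice are too small for a test of single outlying mice.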

How the results depend on the processing

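Counts are of Zfp genes called by limma at an adjusted p of 0.05. Strain differences at 0 h (54 genes) and mean changes at 3 h (19) and 6 h (85) stayed within 1.5 times the main count under all planned settings. With the actin covariate the 6 h count was 52, the SJL 3 h count 10, the SMJ 6 h count 23, the SMJ count at 0 h 12 and the strain F count at 3 h 0. With only the arrays compared, counts were 17 from 3 h to 6 h, 0 and 3 for SJL and DBA at 3 h, 3, 18, 12 and 3 for SJL, SMJ, DBA and C57 at 6 h, and 1 for the strain F at 3 h; fewer arrays leave fewer degrees of freedom. Without a filter the SMJ count at 0 h was 15, the SJL 6 h count 4, the strain F count at 3 h 0 and the SJL 3 h difference count 6. Quantile normalization gave 5 for the strain F at 6 h. The SMJ 3 h count was 1 with offset 16. The SJL difference at 6 h, 0 in the main setting, was 1 with offset 1 or 16, either scaling, the stricter filter or the other probe set choice.

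Leaving out each mouse gave 21 to 38 for SJL, 7 to 24 for SMJ, 11 to 21 for DBA and 11 to 24 for C57 at 0 h. At 3 h it gave 10 to 25 for SJL, 0 to 1 for SMJ, 1 to 6 for DBA and 0 to 1 for C57. At 6 h it gave 3 to 9 for SJL, 23 to 40 for SMJ, 14 to 33 for DBA and 11 to 33 for C57. The strain F counts were 0 to 5 at 3 h and 1 to 6 at 6 h, the SJL difference counts 3 to 12 and 0 to 1, and the second probe set count 4 to 8.

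Signs turned in 2 genes, with probe sets chosen by mean log2 signal and cross-binding ones passed over: Zfp593 in C57 at 0 h was -0.163, Zfp516 at 6 h -0.009 in the mean and -0.186 in C57; the cause was not tested. No paired analysis was possible because no mouse number is shared between groups.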
